A study of Mus musculus with 6 samples.

Results

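The genes described here carry vitamin A from uptake to its nuclear receptors. They are *Stra6* (uptake of retinol), *Rdh10*, *Aldh1a1* and *Aldh1a2* (synthesis of retinoic acid), *Crabp2* (binding), *Cyp26b1* (breakdown) and the receptors *Rara*, *Rarb* and *Rarg*. These 9 genes were chosen by their symbol in the deposited table, out of 20405 genes with a symbol, and each was read by 1 probe set. The RNA came from 2 cell lines of FVB/N mice, with 3 arrays each. M0505 is a line of ovarian surface epithelium used at early passage, and STOSE is the line that M0505 became on long-term passage, without any introduced oncogene. Both grew in the same medium with fetal calf serum and EGF, for which the labels list no retinoid. What retinoid the serum itself carried is not known. Each group is thus 1 line, and the karyotypes of the study showed both to be aneuploid. The labels call the arrays of a line biological replicates without saying how the cultures were separated, so the p-values measure only the spread between these arrays, which may be technical.

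Cells take up retinol through STRA6, oxidize it reversibly to retinaldehyde with RDH10, and oxidize that irreversibly to retinoic acid with the retinaldehyde dehydrogenases encoded by *Aldh1a1*, *Aldh1a2* and *Aldh1a3*. CRABP2 passes retinoic acid to the receptors RARα, RARβ and RARγ, which bind DNA with an RXR partner at direct repeats of a short half-site, and CYP26 enzymes break it down. *Aldh1a2* is known from the embryo as the retinoic acid-making enzyme of the coelomic epithelium, the sheet from which the ovarian surface epithelium derives, and *Rarb* is the textbook example of a receptor gene that retinoic acid switches on through its own promoter.

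In STOSE cells *Stra6*, *Rdh10*, *Aldh1a2* and *Rarb* fell by between 10.8-fold and 171-fold. *Aldh1a1*, *Cyp26b1* and *Rarg* differed by less than 2-fold, and *Crabp2* and *Rara* were not past the threshold of the test. A call required a 2-fold difference together with a limma adjusted p below 0.05. By that rule 4 of the 9 genes were lower and 0 were higher, where 7.59% of all genes were called lower and 4.9% higher. The study had already reported the falls of *Aldh1a2* and *Rarb* from these same arrays. The count was thus partly known beforehand and carries no test. Without the fold threshold 7 of the 9 genes passed, 6 lower and 1 higher, where 56.5% of all genes passed, 24.8% as lower and 31.6% as higher. The arrays of the lines did not overlap for 7 of the 9 genes, which was also so for 64.6% of all genes. The median log2 fold change was −0.79 over the 9 genes and 0.08 over all genes. In RNA of whole cultures, fewer cells with a transcript and less transcript per cell cannot be told apart.

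**Figure D1:**
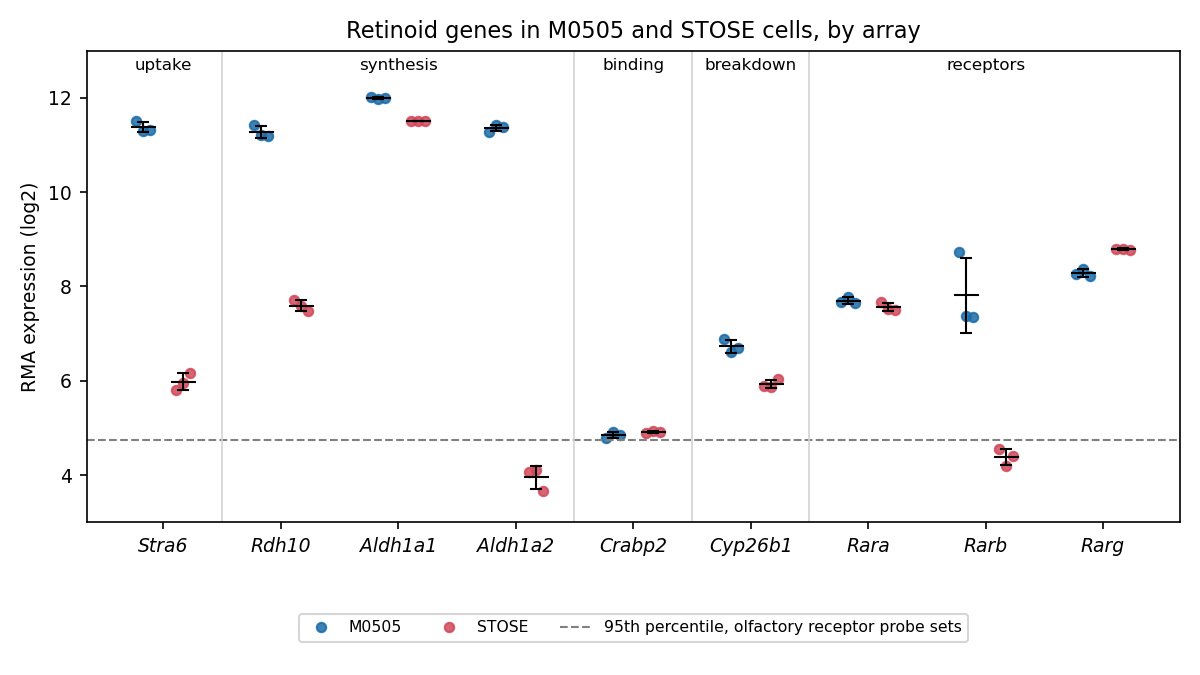
Log2 RMA expression (vertical axis) of the 9 retinoid genes, ordered from uptake to receptors, with a point for each array, the mean and SD of each line (n = 3) and a dashed line at the background level of 4.74. The STOSE arrays of *Aldh1a2* and *Rarb* lie under the dashed line, *Stra6* and *Rdh10* fall to 5.98 and 7.59, and 1 M0505 array of *Rarb* stands at 8.73 above the other two.

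Values are robust multi-array average (RMA) values on a log2 scale, so that 1 unit is a 2-fold difference in RNA signal. The highest value in the table was 12.81. As a background level, 4.74 was taken, below which 95% of the values of 1134 olfactory receptor probe sets lay, since these genes are expected to be silent in such cells. Within a line, Pearson's r between arrays across genes was 0.997 to 0.999, and between the lines it was 0.943 to 0.95. With 3 arrays against 3 an exact permutation test cannot give a two-sided p below 0.1, so differences between the lines were tested with limma.

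The RefSeq promoter of *Aldh1a2* (GRCm38.p6, chr9:71215539-71215838, plus strand, 250 bases before the start site to 50 after) holds 50 CpG pairs in 300 bases. This count lies at percentile 99.2 of 32851 mouse promoters, whose median is 7. The promoter is shown because *Aldh1a2* had the largest fall of all genes in the table, with its CpG pairs in capitals.
Aldh1a2: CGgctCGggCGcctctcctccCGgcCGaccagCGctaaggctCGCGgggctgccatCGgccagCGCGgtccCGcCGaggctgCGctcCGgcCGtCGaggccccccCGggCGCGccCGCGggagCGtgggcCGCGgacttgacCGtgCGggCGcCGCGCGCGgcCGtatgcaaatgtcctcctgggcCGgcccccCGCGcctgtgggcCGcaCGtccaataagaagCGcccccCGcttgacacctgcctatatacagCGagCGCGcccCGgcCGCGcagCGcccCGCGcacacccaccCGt
The promoter of *Rarb* (chr14:16575427-16575726, minus strand) is shown for the receptor binding site it is known for. The half-sites AGGTCA or GGGTCA or AGTTCA or GGTTCA were searched on both strands as direct repeats with 1 or 2 or 5 bases between them. *Rarb* holds 1 repeat with 5 bases between, 53 to 37 bases before the start site, with its half-sites in capitals.
Rarb: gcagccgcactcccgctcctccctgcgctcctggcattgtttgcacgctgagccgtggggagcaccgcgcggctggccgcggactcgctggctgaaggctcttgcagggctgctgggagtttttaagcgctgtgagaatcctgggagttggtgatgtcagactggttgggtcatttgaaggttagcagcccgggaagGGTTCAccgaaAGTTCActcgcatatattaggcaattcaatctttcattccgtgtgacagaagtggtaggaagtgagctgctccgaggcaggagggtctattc
Such a repeat with 5 bases between is found in 0.0974% of the promoters, one with 1 base in 0.222% and one with 2 bases in 0.268%. Windows were at hand for 7 of the 9 genes (15 windows in all), not for *Rdh10* and *Crabp2*, and *Rarb* was the only one of the 7 with any of the repeats. The 300-base windows do not cover distant enhancers, and a match is a description of the letters. *Cyp26a1*, the breakdown enzyme gene best known as a target of retinoic acid, holds 1 such repeat on the strand opposite to the gene (chr19:37697776-37697792).
Cyp26a1: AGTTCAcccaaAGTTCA

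*Stra6* encodes the cell surface receptor through which retinol is taken up from its carrier in serum. Its log2 values were 11.51, 11.30 and 11.33 in M0505 cells and 5.81, 5.94 and 6.17 in STOSE cells. The lines were 5.13 apart at their nearest arrays, and no array of either line varied by more than 0.36 within its line. The log2 fold change was −5.40 with a standard error of 0.10 (42.3-fold lower, adjusted p = 5.72e-09), which ranked 24 among the falls of all genes. The STOSE values stayed above the background level.

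*Rdh10* encodes the dehydrogenase that supplies retinaldehyde in the embryo. It read 11.43, 11.22 and 11.20 in M0505 cells against 7.72, 7.58 and 7.48 in STOSE cells. All STOSE arrays were thus at least 3.48 below all M0505 arrays. *Rdh10* was 12.9-fold lower in STOSE cells, a log2 fold change of −3.69 with a standard error of 0.09 (adjusted p = 1.57e-08), and the STOSE values remained well above the background level.

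The retinaldehyde dehydrogenases differed from each other. *Aldh1a2* read 11.29, 11.42 and 11.39 in M0505 cells and 4.08, 4.11 and 3.67 in STOSE cells. Every STOSE array lay below the background level, so the size of the fall, 171-fold or −7.41 on the log2 scale with a standard error of 0.12 (adjusted p = 3.00e-09), rests on values where RNA can hardly be told from background. Measured from the M0505 mean down to the background level, the fall was at least 98.6-fold. *Aldh1a1* read 12.03, 11.98 and 11.99 in M0505 cells and 11.52, 11.52 and 11.51 in STOSE cells. Its arrays did not overlap and its difference passed the adjusted p (log2 fold change −0.49, 95% confidence interval −0.61 to −0.37, adjusted p = 7.68e-05), but at 1.40-fold it was under the 2-fold threshold. Its mean over the arrays stood at percentile 99.5 of all genes, close to the highest value of 12.81. Whether its difference was compressed at the top of the range was not tested. *Aldh1a3*, the remaining enzyme of the group, was low in both lines, at 5.50 ± 0.10 (SD, n = 3) and 5.24 ± 0.18, and did not pass (log2 fold change −0.26, adjusted p = 0.0511).

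*Aldh1a7*, a mouse paralog of *Aldh1a1* that lies next to it on chromosome 19, fell from 8.77, 8.92 and 8.78 in M0505 cells to 5.63, 5.84 and 5.88 in STOSE cells. This was a fall of 8.21-fold, or −3.04 on the log2 scale with a standard error of 0.08 (adjusted p = 3.45e-08). The transcripts of the paralogs are so alike that probes for one may also bind the other, so the share of each in the 2 signals is uncertain. *Aldh8a1*, which acts on the 9-cis form, stayed under the background level in both lines (3.38 and 3.38).

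*Crabp2*, the protein that hands retinoic acid to the receptors, read 4.78, 4.92 and 4.85 in M0505 cells and 4.88, 4.93 and 4.91 in STOSE cells. The arrays overlapped and lay just above the background level in both lines. The log2 fold change of 0.06 (95% confidence interval −0.08 to 0.19, adjusted p = 0.454) did not pass the threshold, and the direction turned under a further quantile normalization (−0.0060). *Crabp1*, its relative, was at 4.59 ± 0.07 in M0505 cells and 5.02 ± 0.17 in STOSE cells. *Fabp5*, which can carry retinoic acid to PPARδ, was 1.47-fold higher in STOSE cells (8.69 ± 0.09 against 8.13 ± 0.12, adjusted p = 0.000423), under the 2-fold threshold.

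*Cyp26b1* read 6.88, 6.60 and 6.70 in M0505 cells and 5.89, 5.87 and 6.04 in STOSE cells. The lines did not overlap, and the nearest arrays were 0.56 apart. The difference of 1.73-fold passed the adjusted p (log2 fold change −0.79, 95% confidence interval −0.99 to −0.59, adjusted p = 8.12e-05) and not the fold threshold. The other enzymes of breakdown gave little signal. *Cyp26a1*, whose promoter repeat is printed above, was under the background level in both lines (4.47 ± 0.24 and 4.06 ± 0.18), and *Cyp26c1* was at 5.57 ± 0.06 and 5.66 ± 0.14, with a log2 fold change of 0.09 (adjusted p = 0.366).

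The 3 receptors went separate ways. *Rarb* read 8.73, 7.37 and 7.35 in M0505 cells and 4.55, 4.20 and 4.40 in STOSE cells. All STOSE arrays lay below the background level, and M0505 replicate 1 stood 1.38 above the mean of the other two. *Rarb* fell 10.8-fold, by −3.43 on the log2 scale with a standard error of 0.33 (adjusted p = 4.06e-05), or at least 8.42-fold when measured down to the background level. Without M0505 replicate 1 it was 7.86-fold and was still called. *Rara* read 7.67, 7.78 and 7.65 in M0505 cells and 7.67, 7.53 and 7.51 in STOSE cells, which overlap. Its log2 fold change was −0.13 (95% confidence interval −0.29 to 0.03, adjusted p = 0.141), and it became 0.07 when the arrays were centred on their medians. *Rarg* read 8.26, 8.38 and 8.22 in M0505 cells and 8.80, 8.80 and 8.77 in STOSE cells without overlap. It was 1.42-fold higher in STOSE cells (log2 fold change 0.50, 95% confidence interval 0.36 to 0.65, adjusted p = 0.000179), under the 2-fold threshold. Of the RXR partners, *Rxra* was at 8.54 ± 0.02 and 8.88 ± 0.15 (log2 fold change 0.35, adjusted p = 0.00577), *Rxrb* at 7.65 ± 0.05 and 7.58 ± 0.09 (−0.07, adjusted p = 0.404), and *Rxrg* was under the background level in both lines.

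**Figure D2:**
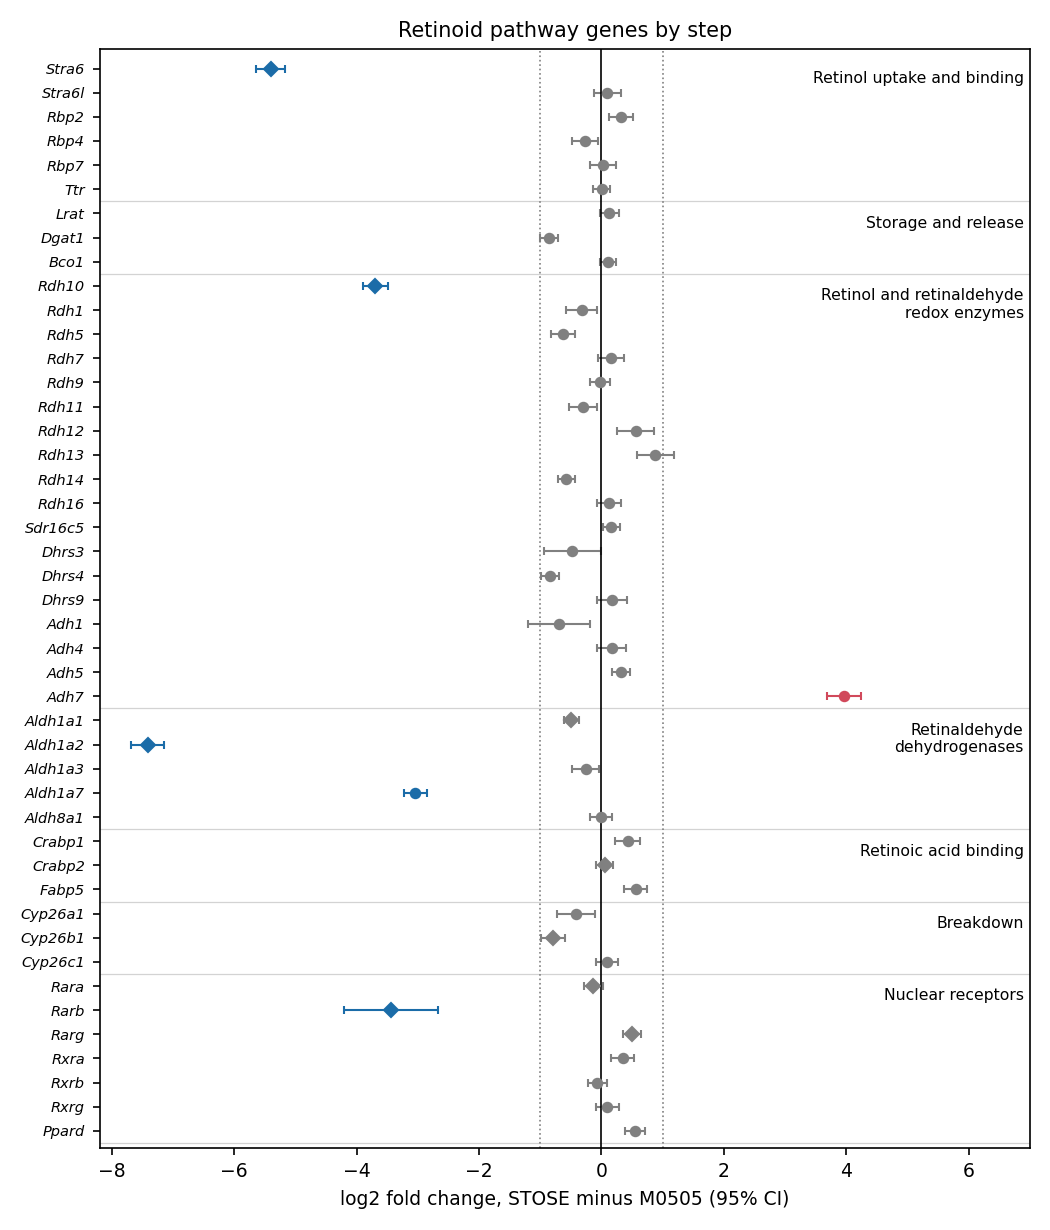
Log2 fold change of STOSE minus M0505 (horizontal axis) with its 95% confidence interval from limma (n = 3 per line) for the 9 retinoid genes (diamonds) and 36 other genes of the pathway (circles), grouped by step. Blue marks genes called lower, red genes called higher and grey genes not called, and dotted lines stand at 2-fold. Most genes lie within the dotted lines, and *Aldh1a2* lies farthest to the left at −7.41.

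The other genes of the pathway were taken from a list of 37, all of them on the array. Of these, 2 were called lower and 1 was called higher, where 7.59% of all genes were called lower and 4.9% higher. Their median log2 fold change was 0.09, against 0.08 over all genes. At the adjusted p alone 11 were lower and 9 higher, where 24.8% of all genes were lower and 31.6% higher. Both lines were under the background level for 14 of the 37, and for 5643 of all 20405 genes. *Aldh1a7*, described above, was among the genes called lower. The secreted carrier genes *Rbp4* and *Ttr* were under the background level in both lines, and *Stra6l*, a second receptor for the carrier, was at 5.30 ± 0.15 and 5.40 ± 0.12.

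The gene called higher was *Adh7*, an alcohol dehydrogenase that can oxidize retinol. It read 6.72, 6.30 and 6.60 in M0505 cells and 10.69, 10.44 and 10.40 in STOSE cells. It rose 15.7-fold, with a log2 fold change of 3.97 and a standard error of 0.12 (adjusted p = 6.08e-08). Beside *Adh7*, none of the genes on this list of 37 for enzymes between retinol and retinaldehyde was called. *Dhrs3*, which returns retinaldehyde to retinol, read 10.61, 9.82 and 9.81 in M0505 cells and 9.77, 9.51 and 9.54 in STOSE cells, with an adjusted p of 0.0766. The gene for the ester-forming enzyme *Lrat* was under the background level in both lines, while *Dgat1*, which can also make retinyl esters, had a log2 fold change of −0.85 (adjusted p = 9.38e-06), which is under 2-fold.

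**Figure D3:**
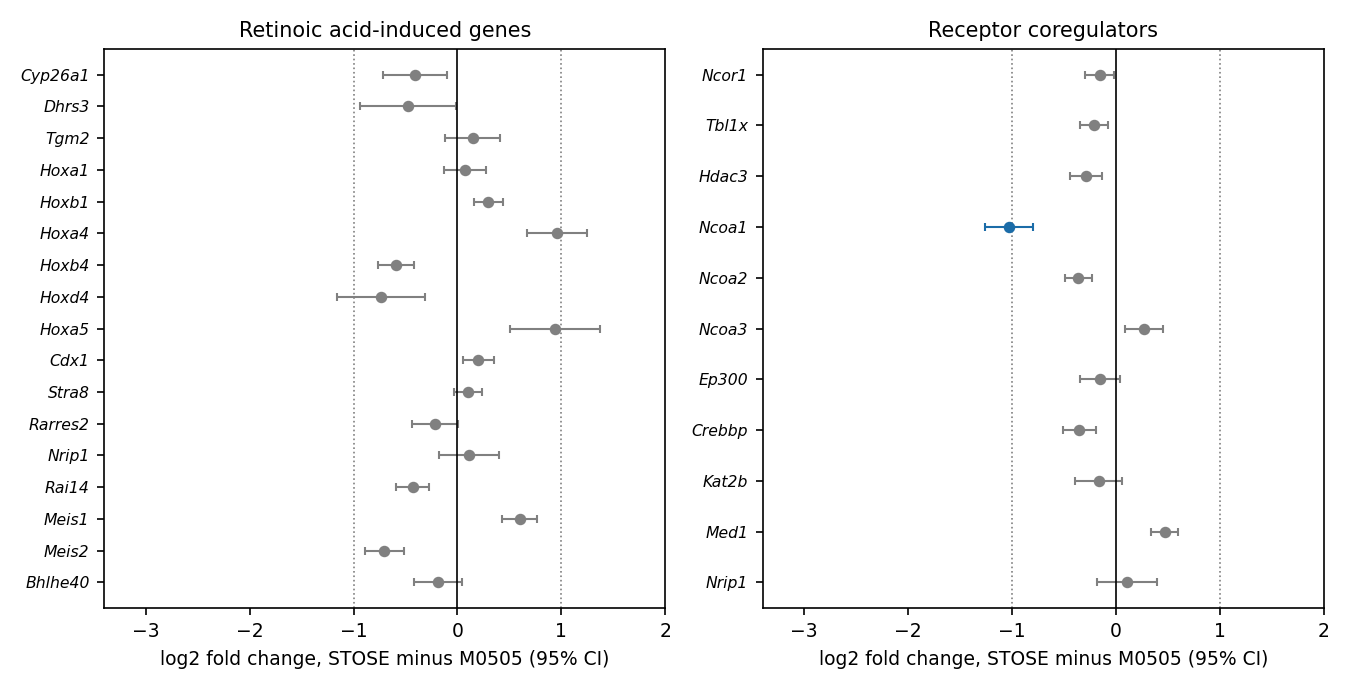
Log2 fold change of STOSE minus M0505 (horizontal axes) with its 95% confidence interval from limma (n = 3 per line) for 17 genes that retinoic acid can induce (left) and 11 coregulators of its receptors (right), with dotted lines at 2-fold. *Ncoa1* at −1.03 is the point called lower, and its call ends under other scalings.

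Retinoic acid is known to induce a set of genes in other cells. Of 19 measured genes of such a list of 20, 1 was called lower and 0 were called higher, where 7.59% of all genes were called lower and 4.9% higher. The median log2 fold change was 0.07, against 0.08 over all genes. At the adjusted p alone 6 were lower and 6 were higher, with 7 not past it, where 24.8% of all genes were lower and 31.6% higher. *Hoxa4* (log2 fold change 0.95) and *Hoxa5* (0.94) were just under 2-fold, while *Hoxd4* (−0.74), *Meis2* (−0.70) and *Hoxb4* (−0.59) had negative values past the adjusted p. The number of the list called higher was 2 with a further quantile normalization, with centring on the medians and without M0505 replicate 1 or STOSE replicate 2, and 1 without STOSE replicate 3. *Rarb* itself belongs to such lists and was left out of this one. The list also held none of the other retinoid genes described from uptake to receptors. Among those left out were *Stra6* (log2 fold change −5.40), *Cyp26b1* (−0.79) and *Crabp2* (0.06). The counts and the median of the list thus do not include their changes, and whether retinoic acid induces them in these cells was not tested. Among 12 coregulators of the receptors, 1 was called lower, the coactivator *Ncoa1* (7.69 ± 0.04 to 6.66 ± 0.21, log2 fold change −1.03, adjusted p = 4.09e-05), and 0 higher, with a median of −0.16. The shares over all genes were again 7.59% called lower and 4.9% called higher. The call of *Ncoa1* ended under 2-fold with a further quantile normalization (−0.88), with centring on the medians (−0.83) and without STOSE replicate 2 (−0.97) or 3 (−0.96). The corepressor *Ncor1* (9.89 ± 0.03 and 9.73 ± 0.07) did not pass the adjusted p.

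**Figure D4:**
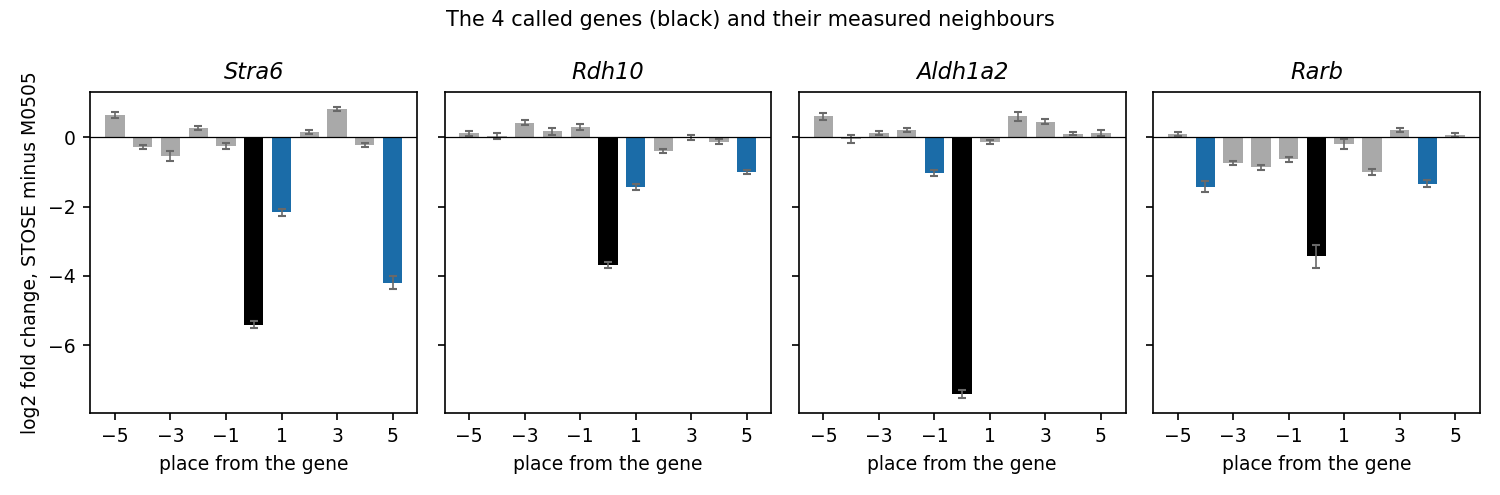
Log2 fold change of STOSE minus M0505 (vertical axis, bars with the limma standard error, n = 3 per line) of *Stra6*, *Rdh10*, *Aldh1a2* and *Rarb* (black, place 0) and of the 5 nearest measured genes on each side in chromosome order (horizontal axis). Neighbours called lower are blue and those not called are grey. The neighbours of *Aldh1a2* lie between −1.03 and 0.61.

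The position of the genes was not used to choose them. In the RefSeq order of protein-coding genes, *Aldh1a2* and *Stra6* lie on chromosome 9, *Rdh10* on 1, *Rarb* on 14, *Aldh1a1* on 19, *Crabp2* on 3, *Cyp26b1* on 6, *Rara* on 11 and *Rarg* on 15. Over the 90 genes that were the 5 nearest measured neighbours on each side, 10 were called lower and 10 higher, with a median log2 fold change of 0.12. The share called lower was 11.1%, against 7.59% of all genes, and the share called higher was also 11.1%, against 4.9% of all genes. Of the 10 neighbours of *Aldh1a2*, 1 was called lower. This was *Aqp9*, a water and glycerol channel gene, at 5.39 in M0505 cells and 4.35 in STOSE cells (log2 fold change −1.03). Its call ended with centring on the medians (−0.83) and without M0505 replicate 2 (−0.96) or STOSE replicate 3 (−0.98).

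Next to *Stra6*, *Islr* fell by 2.16 on the log2 scale (standard error 0.09), and *Loxl1*, a lysyl oxidase gene of elastic fibers, fell by 4.19 (standard error 0.19, adjusted p = 5.00e-07), while the other 8 neighbours were not called. Beside *Rdh10*, *Stau2* fell by 1.44 (standard error 0.09), and *Ly96* (10.29 in M0505 and 9.29 in STOSE cells) lay at the threshold and was under it in 6 of the alternatives. Around *Rarb* the median of the 10 neighbours was −0.68, with *Lrrc3b* (−1.43) and *Nkiras1* (−1.34) called lower. The neighbour of *Rara* with the largest change was *Igfbp4*, a binding protein of insulin-like growth factors, with a log2 fold change of 5.07. Around *Crabp2* 4 of the 10 neighbours were called higher and 0 lower, and around *Rarg* 3 higher and 1 lower. For *Rara* the counts were 2 higher and 1 lower, for *Aldh1a1* 1 and 1, and for *Cyp26b1* 0 and 0. Around each of *Stra6*, *Rdh10*, *Aldh1a2* and *Rarb* 0 were called higher. Of all genes 4.9% were called higher, a share at which 10 genes will often hold 0.

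The genes whose arrays were most like those of *Aldh1a2* were found by the root mean square distance between the 6 log2 values of each gene after centring on its mean. With only 2 lines, this distance mostly follows the size of the difference between them. The nearest were *Enpp2*, which makes lysophosphatidic acid (distance 0.14, log2 fold change −7.20), *4930502E18Rik* (0.39), the adhesion receptor genes *Gpr64* (0.39) and *Gpr126* (0.46), and *Igfbp5* (0.47). For *Rarb* they were *Smpx* (0.22), *Ahsp* (0.27), *Bcat1* (0.29), *Dcaf12l1* (0.30) and *Cdk15* (0.31). *Smpx* was also highest in M0505 replicate 1, at 7.35 against 6.26 and 6.01, a likeness for which the distance itself selects.

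The label of the cells was set against marker genes. Of 15 genes that mark the ovarian surface epithelium and its mesothelial relatives, 14 were above the background level in each line. Of all 20405 genes, 14109 were above it in M0505 cells and 14357 in STOSE cells. *Upk3b* (12.25 ± 0.01 in M0505 and 11.91 ± 0.06 in STOSE cells), *Lrrn4* (11.61 ± 0.10 and 11.46 ± 0.08), *Wt1* (11.39 ± 0.03 and 10.76 ± 0.02) and *Msln* (11.13 ± 0.15 and 10.52 ± 0.17) stayed high. Of these, *Upk3b*, *Wt1* and *Msln* were lower in STOSE cells past the adjusted p, by less than 2-fold. *Lhx9* was under the background level in both lines, and *Cdh1* stood close to it (4.79 and 4.82). The list's mean level was 9.84 to 9.95 over the M0505 arrays and 8.76 to 8.86 over the STOSE arrays, and its median log2 fold change was −0.61. At the adjusted p alone 10 of its genes were lower and 1 higher, where 24.8% of all genes were lower and 31.6% higher. Where 7.59% of all genes were called lower and 4.9% higher, 5 genes of the list were called lower and 0 higher. They were the keratin genes *Krt19* (log2 fold change −5.56), *Krt8* (−4.55) and *Krt7* (−1.03) and the transcription factor genes *Emx2* (−1.55) and *Gata4* (−1.38), and the call of *Krt7* ended with centring on the medians (−0.83) and without M0505 replicate 2 (−0.99) or 3 (−0.997) or STOSE replicate 1 (−0.89). The part of this change in the falls of the retinoid genes was not tested.

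Markers of other cell types of the ovary gave signal in part. In M0505 cells 4 of 7 granulosa, 1 of 5 measured theca and luteal, 4 of 7 fibroblast and stromal, 5 of 7 endothelial and 2 of 7 leukocyte genes were above the background level, and in STOSE cells 4, 1, 4, 4 and 2. Over all genes, 14109 of 20405 were above it in M0505 cells and 14357 in STOSE cells. Of the endothelial genes counted, *Tek* (4.76 and 4.78) and *Cdh5* (4.81 and 5.01) stood close to it. The highest in M0505 cells were *Dcn* (11.94 ± 0.06 in M0505 and 11.49 ± 0.09 in STOSE cells), *Star* (11.34 ± 0.02 and 5.37 ± 0.41), *Cd68* (9.78 ± 0.26 and 6.96 ± 0.30), *Col3a1* (9.65 ± 0.07 and 9.55 ± 0.11), *Inha* (9.61 ± 0.10 and 5.68 ± 0.23) and *Kdr* (9.58 ± 0.08 and 4.41 ± 0.29). The genes *Star*, *Inha*, *Kdr* and *Cd68* thus fell in the same direction as the called retinoid genes, and their part in those falls was not tested. The defining leukocyte gene *Ptprc* (3.79 and 3.81), the endothelial genes *Pecam1* (4.69 and 4.33) and *Emcn* (2.99 and 3.05) and the steroidogenic genes *Cyp17a1* and *Cyp11a1* were under it in both lines. The mean level of the 7 leukocyte genes was 5.01 to 5.04 in M0505 cells and 4.74 to 4.76 in STOSE cells, with 1 gene called lower (*Cd68*, −2.82) and 5 under the background level in both lines. That of the 7 endothelial genes was 5.29 to 5.38 and 4.62 to 4.64, with 1 called lower (*Kdr*, −5.17). Of the 7 granulosa genes (6.11 to 6.16 and 5.30 to 5.45) 1 was called lower (*Inha*, −3.93), with *Fshr* and *Cyp19a1* under the background level in both lines, and of the 5 measured theca and luteal genes (4.93 to 4.99 and 3.86 to 3.95) 1 was called lower (*Star*, −5.97) and the other 4 were under it in both lines. Of 7 fibroblast and stromal genes (7.02 to 7.09 and 7.27 to 7.34) 0 were called. Of all genes, 7.59% were called lower and 4.9% higher.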

How the data were processed

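Total RNA of M0505 and STOSE cells was hybridized to Affymetrix Mouse Gene 1.0 ST arrays. The authors normalized the 6 arrays by RMA in Affymetrix Expression Console, per the submitters' processing notes, and deposited log2 values per probe set, replicates not pooled. Versions, annotation release and genome build are not given in the sources used here. The deposited means and fold changes (4 columns) were not used, and 0 columns lacked a sample. Of 28944 probe sets, 23530 had a symbol, and the one with the highest mean was kept for each of 20405 genes.

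The lines were compared by two-sided moderated tests in limma (version 3.58.1, R version 4.3.3) without covariates, and p-values were adjusted over all genes by Benjamini-Hochberg. The code was first tested on simulated data. The methods' t-test, another normalization, filters on dim genes, other thresholds, the replicate number as a block and leaving out each array were alternatives. Their use on the lists and neighbours was chosen after seeing the data, as was the background level. Arrays give no counts, so the 3 arrays of each line set the precision.

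The members and the gene lists were chosen with earlier results of these data known, including the falls of *Aldh1a2* and *Rarb* that the study reported. Named beside the 9 genes are called members of the lists, further genes of the same steps, some of the called neighbours and the 5 genes most like *Aldh1a2* and *Rarb*. All called neighbours of *Stra6*, *Rdh10*, *Aldh1a2* and *Rarb* are named, and most of those of the other members are only counted. Other genes were named after their values were seen. Neighbours, gene names and promoter sequences are from RefSeq (GRCm38.p6). *Rarres1* and *Insl3* were not matched on the array. Some genes of the lists enter the counts and are not reported here by name or plotted.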

Additional observations from a re-analysis of the deposited data

How the results depend on the processing

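Over 15 alternatives, the 9 retinoid genes gave 132 further log2 fold changes, of which 130 kept their direction and their side of the threshold and 0 gained or lost a call. The 2 that turned direction were *Crabp2* with a further quantile normalization (−0.00604) and *Rara* with arrays centred on their medians (0.0706), neither called in any fit, and the centring added 0.20 to every log2 fold change. Leaving out the dimmest 50% of genes removed *Crabp2*, *Cyp26b1* and *Rarb* from the fit. Without a fold threshold, 1 of the 9 genes was called higher, and over all genes 5066 were lower and 6454 higher, against 1548 and 1000 at 2-fold and 509 and 186 at 4-fold. The balance over all genes at 2-fold depended on the scaling. It was 1410 lower and 1149 higher with a further quantile normalization, and 1177 lower and 1466 higher with centring on the medians. In both settings 4 of the 9 genes were called lower and 0 higher. When single arrays were left out, *Aldh1a2* ranged from −7.49 to −7.27, *Stra6* from −5.50 to −5.32, *Rdh10* from −3.76 to −3.62 and *Rarb* from −3.67 to −2.98, the last without M0505 replicate 1. Deviations from the line means correlated between arrays of the same replicate number at 0.26, 0.04 and 0.25, and between those of different numbers at −0.29 to 0.12. The main fit did not take the numbers as pairs, and whether arrays of the same number shared a batch was not tested. With the replicate block 4 of the 9 genes were called lower and 0 higher, and 1548 and 1001 of all genes. STOSE replicate 2 correlated best with M0505 replicate 3, and the other 5 arrays with their own number. The call of *Ncoa1* and of several neighbours close to 2-fold depended on the scaling, as given with them. The methods' t-test with the 2-fold threshold called 1546 genes lower and 996 higher unadjusted, 1543 and 988 after Benjamini-Hochberg, and 4 of the 9 retinoid genes lower in each case.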

Other observations

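M0505 replicate 1, in which *Rarb* was high, was also the highest M0505 array for 14 of the 19 genes on the list of retinoic acid-induced genes (73.7%), where it was the highest for 36.5% of all genes. This count was made after the values of *Rarb* were seen, and it carries no test. Replicate 2 was the highest for 4 of the 19 and replicate 3 for 1. Against the mean of the other M0505 arrays, replicate 1 was higher by 0.79 on the log2 scale in *Dhrs3*, 0.49 in *Hoxa5* and 0.46 in *Nrip1*. It was higher by 0.42 in *Cyp26a1*, whose mean was under the background level in both lines. The difference was small in others, such as *Cdx1* (0.08) and *Meis2* (0.08). *Hoxb1* (−0.13) and *Rarres2* (−0.07) were among the genes lower in M0505 replicate 1. Of all genes, 21 differed by more than 1 between this array and the other two, 15 of them higher, and *Rarb* ranked 4 among these. The 3 above it were *Slc7a11*, a cystine transporter gene (7.82 against 5.68 and 6.44), the small nucleolar RNA *Snora75* (6.31 against 4.75 and 4.46) and *Nqo1*, a quinone reductase gene (9.69 against 8.03 and 8.49). The other retinoid genes that were called did not stand apart in it, with differences of 0.19 in *Stra6*, 0.22 in *Rdh10* and −0.12 in *Aldh1a2*.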
